A study of Rattus norvegicus with 2 samples.

Results

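The 14-3-3 protein family was described in cultured rat cortical neurons after electroporation of a control or a PIWIL1 RNAi plasmid. Its members were taken by gene symbol, matched through the RefSeq accession of each entry, and were Ywhab, Ywhae, Ywhag, Ywhah, Ywhaq and Ywhaz, 6 of the 9894 genes with a tag in either library. Both libraries came from E16 Sprague-Dawley rats, whose somatosensory cortex was dissociated, electroporated with one of the plasmids and kept for 48 h in Neurobasal medium with serum and B27. The animals carried no stated allele, and the labels give the same strain, stage, tissue, medium and time for both cultures. Litter, culture day, transfected share and library batch are not stated and cannot be told apart from the plasmid. Each condition had 1 library, so no value here has a replicate check, and every test compares these 2 libraries rather than the conditions. The RNA was total RNA of the whole dish, and no sorting of electroporated cells is described for it, so untransfected cells were measured together with transfected ones. Piwil1 itself was not analysed here, and the knockdown was not checked in these libraries.

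14-3-3 proteins are small acidic adaptors that work as homodimers or heterodimers. Each subunit carries a groove that binds a phosphorylated serine or threonine in a partner protein, and binding can mask a partner's localization signal, hold it in the cytoplasm, shield its phosphate from phosphatases or bridge it to another protein. They are among the abundant soluble proteins of the brain. In developing cortex the epsilon form is known for binding phosphorylated Ndel1, a partner of Lis1 and dynein, and mice that lack it have neuronal migration defects.

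The measurement was digital gene expression, in which cDNA is cut at CATG and a 21-base tag that begins with that site is sequenced. Sites are numbered from the 3′ end of the transcript, and site 1 is the CATG nearest to it. The unit was the copy number of a tag, and a gene's level was the sum of its tag copies, given also as TPM, which here means copies per 1000000 clean tags of the library with no division by gene length. Such a level is meant to count cut transcripts and not bases, so genes were set side by side without a length correction. The control library held 1947600 tag copies on genes out of 3386865 clean tags (57.5%), and the RNAi library 1865913 out of 3303359 (56.5%), so 3 copies stood for 0.886 and 0.908 TPM. Intervals are exact (Clopper-Pearson or Poisson, 95%) and cover counting error only, since copies made by PCR do not stand for separate molecules.

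The most copied tag of each member, over both libraries together, is shown first because it held from 22.2% (Ywhab) to 73.8% (Ywhae) of a member's copies in the control library. The capitals mark the last 2 bases, which the results refer to again.
Ywhae site 1: catggaattaacattaaacTT
Ywhaz site 2: catgtattaaagttcatgtAA
Ywhag site 2: catgttatgcagtgaaactAT
Ywhaq site 1: catgtgtaataaagtgaacAT
Ywhah site 1: catgatgggtggttatgaaAT
Ywhab site 1: catgcactgatttaaacaaAA
Across the family 148 different tags were listed at 62 sites, each tag under 1 gene. Each site had 1 main tag. The other 86 tags differed from the main tag of their site by exactly 1 base, and none was within 1 base of another member's tag. They held 148 copies in the control library and 169 in the RNAi library, and no single one held more than 16 in both.

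One site is shared by 5 of the 6 genes in nearly the same letters, and it is shown because tags of different members are alike there. Of its 21 positions 16 were the same in all 5 tags, and the 5 that varied are in capitals.
Ywhae site 5: catgcagCtgctACgTgaTaa
Ywhag site 7: catgcagCtgctCCgAgaCaa
Ywhab site 8: catgcagCtgctAAgGgaCaa
Ywhaq site 9: catgcagTtgctTAgAgaCaa
Ywhah site 7: catgcagTtgctGCgAgaCaa
The closest of these pairs, Ywhah with Ywhaq and Ywhah with Ywhag, differed at 2 positions. At this site Ywhae had 390 copies in the control library and 364 in the RNAi library, Ywhaq 174 and 174, Ywhab 117 and 125, Ywhah 53 and 42, and Ywhag 34 and 22. None of the 5 tags passed the test for a difference between the libraries.

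All 6 genes were abundant in both libraries. Ywhae (NM_031603, the epsilon form) had 3234 TPM in the control library (95% interval 3173 to 3295) and 3071 TPM in the RNAi library (3012 to 3132), which placed it 8th and 10th among all genes. Ywhaz (NM_013011, the zeta form, one of the most studied adaptors of the family) had 1874 and 2066 TPM. Ywhag (NM_019376, the gamma form, whose human counterpart is mutated in a childhood epileptic encephalopathy) had 956 and 781 TPM. These 3 genes led the family in the control library, and Ywhae alone held 40.4% of the family's copies there (39.8% to 41.0%) and 39.9% in the RNAi library (39.3% to 40.5%). Ywhaq (NM_013053, the theta form, also called tau) had 950 and 810 TPM. Ywhah (NM_013052, the eta form) had 518 and 413 TPM. Ywhab (NM_019377, the beta form, a known binder of Raf kinases) had 469 and 563 TPM. By deposited copies the last of these genes changed place with Ywhah between the libraries. The order of the other levels differed only for a pair that counting error did not separate.

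The order in the control library was Ywhae, Ywhaz, Ywhag, Ywhaq, Ywhah and Ywhab. Ywhae had 1.73 times the copies of Ywhaz (1.67 to 1.78), and Ywhaz 1.96 times those of Ywhag (1.88 to 2.05). Ywhag and Ywhaq were not apart, with a ratio of 1.01 (0.959 to 1.06). Ywhaq stood 1.83 times above Ywhah (1.73 to 1.95), and Ywhah 1.10 times above Ywhab (1.03 to 1.18). In the RNAi library the order was Ywhae, Ywhaz, Ywhaq, Ywhag, Ywhab and Ywhah. The step from Ywhae to Ywhaz was smaller there, 1.49 (1.44 to 1.53), and the step from Ywhaz to Ywhaq was 2.55 (2.44 to 2.67). Ywhaq and Ywhag were again not apart (1.04, 0.981 to 1.09). Ywhab now stood 1.36 times above Ywhah (1.27 to 1.46).

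**Figure D1:**
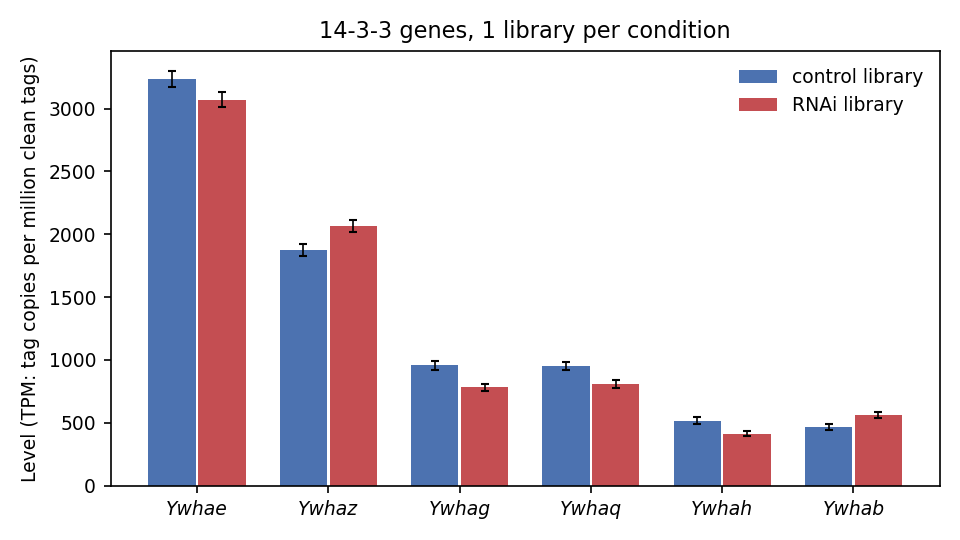
Level of each 14-3-3 gene, in TPM (copies per 1000000 clean tags) on a linear axis that starts at 0, with 1 bar for the control library and 1 for the RNAi library and 95% Poisson intervals of the copies as error bars. Ywhae led with 3234 and 3071 TPM, and Ywhab stood under Ywhah in the control library (469 against 518 TPM) and above it in the RNAi library (563 against 413 TPM).

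The comparison of control with RNAi asks which transcripts differ when PIWIL1 is targeted in these cells. A call asked for a false discovery rate (FDR) of at most 0.05 in Fisher's exact test together with a log2 ratio of TPM at or beyond 0.58 in either direction. By this rule 0 of the 6 members were called in either direction, against 5.97% of all genes called lower and 2.96% called higher in the RNAi library. The split over all genes, 591 lower and 293 higher, was 459 and 398 with TMM factors, 475 and 382 with DESeq2 size factors and 358 and 196 with a correction for the last bases of each tag, the tag-end correction. Most genes had fewer copies than the members, and many copies let small differences pass the exact test. At an unadjusted p under 0.05 by the same exact test, 4 members were lower and 2 higher, against 15.5% and 11% of all genes. With edgeR's exact test 0 members were at that level, against 8.33% of all genes lower and 4.53% higher when the coefficient of variation was taken as 0.1, and 0.707% and 0.445% when it was taken as 0.4. In a whole-dish library, fewer cells of a type and less RNA per cell cannot be told apart.

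By the FDR alone, 3 members were lower in the RNAi library (Ywhag, Ywhaq and Ywhah) and 2 were higher (Ywhaz and Ywhab). Over all genes 9.53% were lower and 7.14% higher by the FDR alone, but genes with many copies pass it at small differences. Among the 733 genes whose copies reached 1000 when the libraries were added up, 29.3% were lower and 34.7% higher, and 5 of 6 members is to be read against those shares. These 733 genes had log2 ratios with quartiles of -0.24 and 0.23, and 35.3% of them lay at or beyond the largest absolute log2 ratio of a member (0.33).

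Ywhah had 1753 copies in the control library and 1364 in the RNAi library, a log2 ratio of -0.33 (-0.43 to -0.22) with an exact-test FDR of 2.03e-07. Ywhag had 3238 and 2581 copies, a log2 ratio of -0.29 (-0.37 to -0.22) with an exact-test FDR of 1.10e-10. Ywhaq had 3216 and 2675 copies, a log2 ratio of -0.23 (-0.30 to -0.16) with an exact-test FDR of 1.54e-06. These members held 0.798, 0.817 and 0.853 of their control TPM. Ywhab had 1589 and 1860 copies, a log2 ratio of 0.26 (0.17 to 0.36) with an exact-test FDR of 1.23e-07. Ywhaz had 6347 and 6826 copies, a log2 ratio of 0.14 (0.091 to 0.19) with an exact-test FDR of 1.13e-09. The RNAi library thus held 1.20 and 1.10 times the control TPM of these genes. Ywhae had 10952 and 10146 copies, a log2 ratio of -0.074 (-0.11 to -0.035), and did not pass the exact test (FDR 0.0764). Its interval and its unadjusted exact p of 0.0145 are for 1 gene. The ratio and its interval use all clean tags as totals, whereas the test uses all tags on genes. With all clean tags as totals in the test, Ywhae passed (exact-test FDR 0.00213), so its result depends on the totals.

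Summed over the family there were 27095 copies in the control library and 25452 in the RNAi library, or 8000 and 7705 TPM, which was 1.39% and 1.36% of all tags on genes. The log2 ratio of the sum was -0.054 (-0.079 to -0.029). The median log2 ratio of the 6 members was -0.15, beside -0.085 over the 8899 genes listed in both libraries. The share of Ywhaz in the family was 23.4% (22.9% to 23.9%) in the control library and 26.8% (26.3% to 27.4%) in the RNAi library. The share of Ywhab was 5.86% (5.59% to 6.15%) and 7.31% (6.99% to 7.63%). Conversely, the share of Ywhag was 11.95% (11.6% to 12.3%) and 10.1% (9.77% to 10.5%).

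The members were then read site by site. Of the 62 site tags, 53 had at least 20 copies over both libraries and were tested. Their log2 ratios were below 0 for 28 and above 0 for 25. By the same rule as for genes, 2 member tags were called lower and 2 higher, against 7.22% and 4.09% of the 16021 tags tested. By the FDR alone 7 were lower and 6 higher, against 9.03% and 6.87%. The 4 called tags are shown with their last 2 bases in capitals.
Ywhae site 2: catgcgtgttcaactcttcCT
Ywhaq site 8: catgtgtatggggtcaactGT
Ywhab site 1: catgcactgatttaaacaaAA
Ywhab site 4: catgtgaaaacggggctgtTA
The Ywhae site 2 tag fell from 867 copies in the control library to 555 in the RNAi library (log2 ratio -0.61, -0.76 to -0.45, FDR 4.15e-12 by Fisher's exact test). The Ywhaq site 8 tag fell from 146 to 75 copies (log2 ratio -0.92, -1.35 to -0.51, exact-test FDR 0.000139). The Ywhab tags rose, from 353 to 537 copies at site 1 (log2 ratio 0.64, 0.44 to 0.84, exact-test FDR 4.68e-10) and from 160 to 245 at site 4 (log2 ratio 0.65, 0.36 to 0.95, exact-test FDR 6.64e-05).

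**Figure D2:**
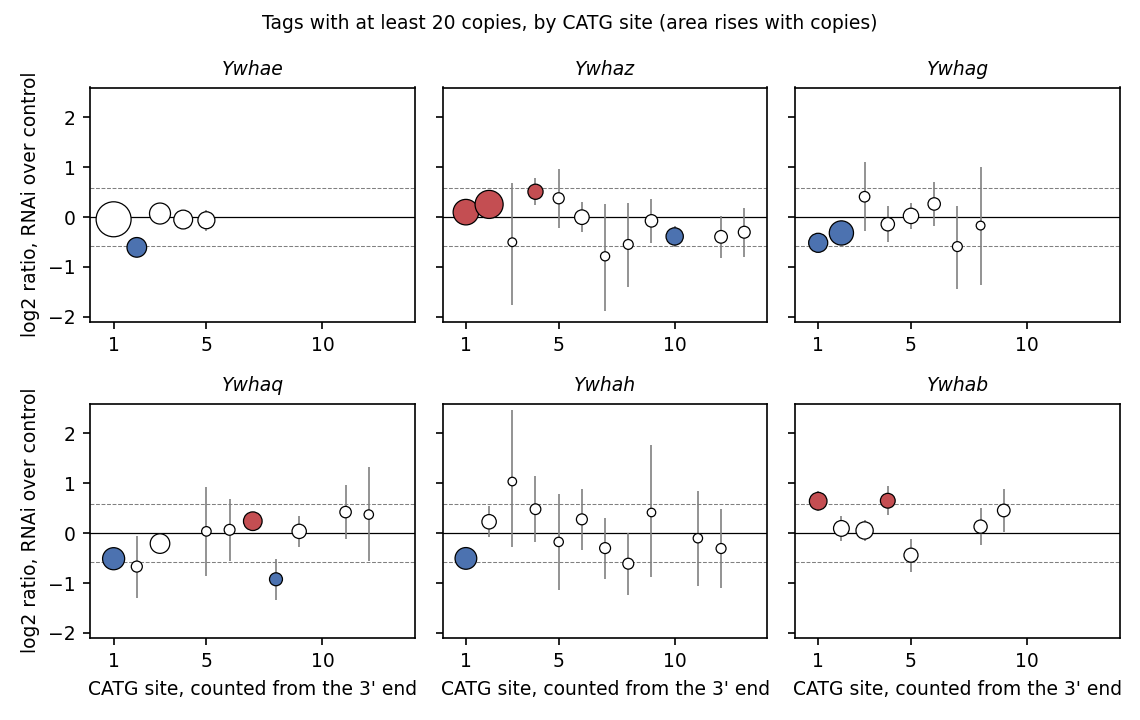
Log2 ratio of RNAi over control for each CATG site with at least 20 copies, 1 panel per gene, with the site's number from the 3′ end on the x axis, 95% intervals as vertical lines and circle area rising with the copies. Blue circles were lower and red circles higher at the FDR threshold, and white circles did not pass it: Ywhae site 2 stands at -0.61 while its other 4 sites lie between -0.064 and 0.071.

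In Ywhae, the site 1 tag held 8086 copies in the control library and 7649 in the RNAi library, a log2 ratio of -0.044. Sites 3, 4 and 5 had 933 and 956, 607 and 572, and 390 and 364 copies, and none of them passed the test. Site 2 was thus the 1 of the 5 sites that passed, and it held 867 of the gene's 10952 control copies. All Ywhae tags other than that of site 1 summed to 2866 and 2497 copies, a log2 ratio of -0.16.

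Ywhaz had 15 sites, of which 12 were tested, and its 3 tags at sites 1, 2 and 4 were higher by the FDR alone. Site 2 had 2938 copies in the control library and 3418 in the RNAi library (log2 ratio 0.25, exact-test FDR 6.70e-13). Site 1 had 2107 and 2201 copies (log2 ratio 0.099, exact-test FDR 0.0325), and site 4 had 191 and 265 (log2 ratio 0.51, exact-test FDR 0.00128). Site 10 went the other way with 467 and 348 copies (log2 ratio -0.39, exact-test FDR 0.00439). The tags other than that of site 2 summed to 3409 and 3408 copies, a sum in which rises at sites 1 and 4 met falls at others such as site 10. With the tag-end correction the log2 ratio was 0.048 at site 2 and 0.25 at site 1. These first sites of Ywhaz lie close together. The tag of site 2 holds the CATG of site 1 within it, shown in capitals, and the bases from there on are the first bases of the site 1 tag.
Ywhaz site 2: catgtattaaagttCATGtaa
Ywhaz site 1: CATGtaagtggaataaaagtt

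In Ywhag the lower tags were those of sites 1 and 2. Site 2 had 1932 copies in the control library and 1511 in the RNAi library (log2 ratio -0.32, exact-test FDR 1.06e-07), and site 1 had 742 and 506 (log2 ratio -0.52, exact-test FDR 1.01e-07). None of its other 6 tested sites passed, and site 5, the next in copies, had 242 and 240.

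Ywhaq and Ywhah both had a lower site 1, and their other tags in sum had log2 ratios near 0. The Ywhaq site 1 tag had 1388 copies in the control library and 949 in the RNAi library (log2 ratio -0.51, exact-test FDR 4.86e-14), while its other tags summed to 1828 and 1726 (log2 ratio -0.047). Among those other tags the one of site 3 had 755 and 637 copies (log2 ratio -0.21, exact-test FDR 0.0933), and that of site 7 had 526 and 606 (log2 ratio 0.24, exact-test FDR 0.0169). The Ywhah site 1 tag had 1289 and 885 copies (log2 ratio -0.51, exact-test FDR 9.80e-13), while its other tags summed to 464 and 479 (log2 ratio 0.082). None of the other 10 tested sites of Ywhah passed, so its lower level rested on site 1.

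Ywhab spread its copies over more even sites. Besides sites 1 and 4, sites 2 and 3 had 263 and 274 and 401 and 406 copies, and site 5 had 188 and 135 (log2 ratio -0.44, exact-test FDR 0.0613). Without the site 1 tag the gene had 1236 copies in the control library and 1323 in the RNAi library, a log2 ratio of 0.13.

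The share of a gene's copies on its most copied tag compares sites within the gene and does not depend on how the libraries are scaled. It differed between the libraries in 4 members, lower in 2 and higher in 2, against 5.28% of 5114 genes lower and 6.98% higher. Those genes needed only 20 copies on the most copied tag and 20 on the others. Genes with many copies, as the members have, pass at smaller differences, so these percentages are not a comparison at like depth. The share of site 1 in Ywhah was 73.5% in the control library (71.4% to 75.6%) and 64.9% in the RNAi library (62.3% to 67.4%), with an exact-test FDR of 8.18e-06. The share of site 1 in Ywhaq was 43.2% (41.4% to 44.9%) and 35.5% (33.7% to 37.3%), with an exact-test FDR of 1.19e-07. The share of site 1 in Ywhab was 22.2% (20.2% to 24.3%) and 28.9% (26.8% to 31.0%), with an exact-test FDR of 0.000208. The share of site 2 in Ywhaz was 46.3% (45.1% to 47.5%) and 50.1% (48.9% to 51.3%), with an exact-test FDR of 0.000341. Ywhae had 73.8% and 75.4% (exact-test FDR 0.0697) and Ywhag 59.7% and 58.5% (exact-test FDR 0.686), and neither passed.

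**Figure D3:**
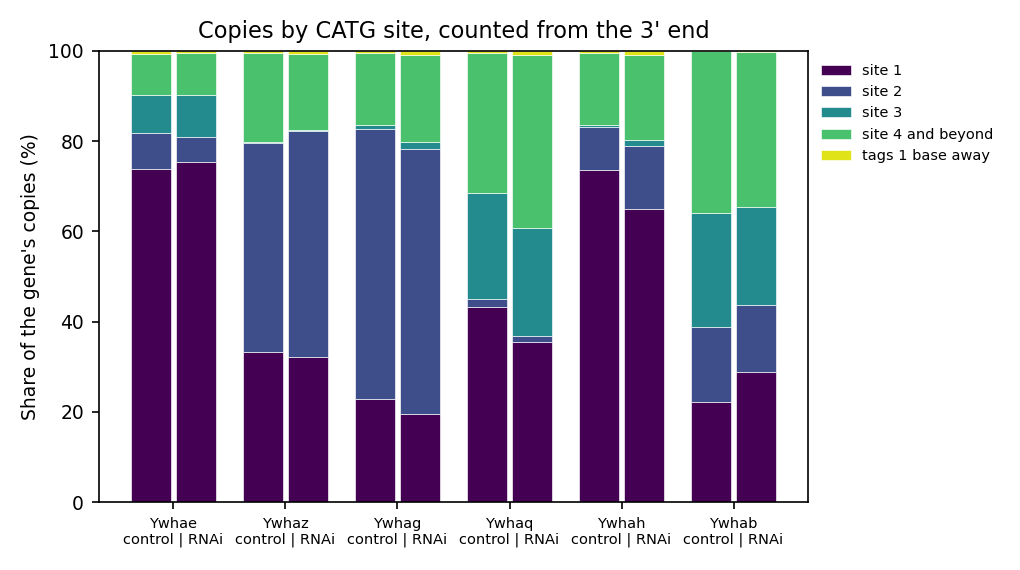
Share of each gene's tag copies, in percent, at site 1, site 2, site 3, sites 4 and beyond, and on tags 1 base away, stacked to 100 for the control and the RNAi library. The site 1 part shrinks from 73.5% to 64.9% in Ywhah and from 43.2% to 35.5% in Ywhaq, and grows from 22.2% to 28.9% in Ywhab.

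The last bases of a tag moved with its log2 ratio across all genes, and the leading tags of the members carry such ends. Over the tags of other genes the median log2 ratio was -0.39 for the 1031 tags ending in AT, the ending of Ywhag site 2, Ywhaq site 1 and Ywhah site 1. It was -0.68 for the 631 tags ending in GT, as Ywhag site 1 and Ywhaq site 8 do, and -0.22 for the 1357 ending in TT, as Ywhae site 1 does. It was 0.16 for the 985 ending in AA, as Ywhaz site 2 does, and 0.29 for the 101 ending in a run of 4 A, as Ywhab site 1 does. Over all tested tags the median was -0.079. The most copied tag of each lower member thus carried an end that was lower across other genes, and that of each higher member an end that was higher there. Other tags did not all follow this. Ywhaz site 1, which also ends in TT, was higher (log2 ratio 0.099), and it had 0.25 with the tag-end correction.

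With the median of each end class, relative to that of all tags, taken out of every tag, the members lay closer to 0. The log2 ratio was then 0.018 for Ywhag (exact-test FDR 0.531), -0.080 for Ywhaq (exact-test FDR 0.425) and -0.12 for Ywhah (exact-test FDR 0.251), so none of the lower members passed. It was 0.11 for Ywhab (exact-test FDR 0.0516) and 0.10 for Ywhaz, which still passed (exact-test FDR 1.46e-05). It was 0.037 for Ywhae, which then passed in the opposite direction to its deposited ratio (exact-test FDR 0.0184). These tests used rounded corrected copies, and the error of the class medians was not part of them. They again took tags on genes as totals, and the corrected Ywhae value was not tested with all clean tags as totals. The sum over the family had a log2 ratio of 0.033, and the median of the members was 0.027, beside -0.071 over all genes. Corrected copies put Ywhab above Ywhah in both the control library (1679 against 1636) and the RNAi library (1747 against 1449). Their change of place was thus one of deposited copies.

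The shares of the leading tags were also closer with this correction. In Ywhah site 1 had 70.7% in the control library and 68.0% in the RNAi library (exact-test FDR 0.413), in Ywhaq 40.8% and 37.9% (exact-test FDR 0.180), and in Ywhab 24.2% and 26.7% (exact-test FDR 0.412). In Ywhaz site 2 had 49.1% and 47.3%, the opposite direction, without passing (exact-test FDR 0.265). Ywhae site 1 had 72.9% and 76.3% and passed (exact-test FDR 8.89e-07). Among the called tags, Ywhab site 4 had a log2 ratio of 0.60 after the correction, still beyond 0.58. Ywhae site 2 had -0.44, Ywhaq site 8 -0.37 and Ywhab site 1 0.25, all short of it, and single tags were not tested again after the correction. The tags ending as Ywhae site 2 and Ywhab site 4 do had medians of -0.25 (CT, 1335 tags) and 0.036 (TA, 800 tags).

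**Figure D4:**
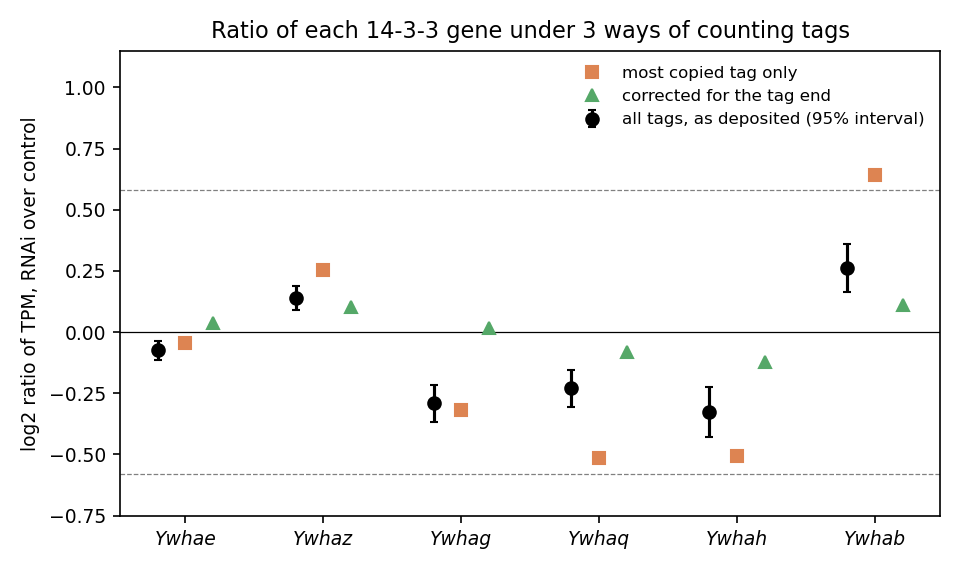
Log2 ratio of RNAi over control for each 14-3-3 gene from all tags, from the most copied tag alone and from all tags corrected for the tag end, with 95% intervals on the values from all tags and dashed lines at the ratio threshold of 0.58 in either direction. Ywhag moves from -0.29 to 0.018 and Ywhah from -0.33 to -0.12 with the correction, and the most copied tag of Ywhab (0.64) is the point beyond a dashed line.

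The makeup of the cultures was read from marker lists. All 7 neuron markers were listed, with 4237 TPM in sum in the control library and 3804 in the RNAi library, and 1 of them, Snap25, a synaptic vesicle fusion protein, was called lower (271 and 165 TPM). With the tag-end correction its log2 ratio went from -0.72 to -0.56, short of the threshold. By the FDR alone 3 of the 7 were lower and 1 higher, against 9.53% and 7.14% of all genes. Tubb3, Dcx, Stmn2, Snap25 and Gap43 had at least 1000 copies over both libraries. Among the 733 genes with that many, 29.3% were lower and 34.7% higher by the FDR alone. Besides Snap25, the lower ones were Tubb3 (log2 ratio -0.49, exact-test FDR 2.30e-14) and Stmn2 (log2 ratio -0.36, exact-test FDR 3.06e-38). With the correction these had -0.41 and -0.20. Gap43, a growth cone protein, was higher by the FDR alone (log2 ratio 0.44, exact-test FDR 5.67e-35) and turned to -0.50 with the correction, and Dcx had 0.066. Of 7 progenitor markers 6 were listed, without Eomes, with 1009 and 1302 TPM in sum, most of it Vim (790 and 1127 TPM). The other 5 were below 0 on the log2 scale, from -0.25 for Pax6 to -0.52 for Hes5, and the median of the 6 was -0.28. Of those 5 only Nes passed the FDR (log2 ratio -0.50, exact-test FDR 0.0336), and it did not with the tag-end correction (exact-test FDR 0.0724). Vim was higher by the FDR alone (log2 ratio 0.51, exact-test FDR 1.63e-47) and had 0.49 with the correction. Its most copied tag had 2234 and 2280 copies, and its other tags 440 and 1444. Of 6 astrocyte markers 5 were listed, without Aqp4, with 182 TPM in either library. Endothelial and fibroblast markers summed to 431 and 415 TPM, mostly Col1a1, with the endothelial Pecam1 and Cldn5 not listed. Erythroid markers summed to 27.8 and 35.1 TPM, microglial ones to 14.2 and 16.04 TPM, with Cx3cr1, P2ry12 and Itgam not listed, and oligodendrocyte lineage ones to 6.8 and 5.75 TPM. The part of these sums in the levels of the 14-3-3 genes was not tested.

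Genes were read from 3 lists, 2 of known 14-3-3 partners and clients and 1 of kinases and phosphatases chosen for 14-3-3 docking sites. The counts of each list are to be read beside 5.97% of all genes called lower and 2.96% called higher. By the FDR alone 9.53% of all genes were lower and 7.14% higher. For list genes with at least 1000 copies over both libraries, the shares at like depth were 29.3% and 34.7% of 733 genes. Of 15 cytoskeleton and migration partners 13 were listed, 1 was called lower and 0 higher, and by the FDR alone 2 were lower and 2 higher. The median log2 ratio of the 13 was -0.21, beside -0.085 over all genes. Mapt, which encodes the microtubule-binding protein tau, fell from 1222 to 761 TPM (log2 ratio -0.68, -0.76 to -0.61, exact-test FDR 6.63e-72), and all 21 of its tested tags were lower. Cfl1, the actin-severing cofilin whose phosphorylated form binds 14-3-3, had 2968 and 2361 TPM (log2 ratio -0.33, exact-test FDR 1.77e-42) and was short of the ratio threshold. Its site 1 tag had 7281 copies in the control library and 4928 in the RNAi library, whereas its other tags had 2772 and 2872 (log2 ratio 0.087). With the tag-end correction Cfl1 had -0.52 (exact-test FDR 6.53e-110). Ndel1, the partner of the epsilon form, had 171 and 165 TPM (log2 ratio -0.054, -0.23 to 0.12) and did not pass (exact-test FDR 0.915). The members higher by the FDR alone, named after their values were seen, were Arhgef2 (92.7 and 117 TPM) and the cofilin kinase Limk1 (86.2 and 107 TPM). Neither passed with the tag-end correction (exact-test FDR 0.0611 and 0.138).

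Of 33 signalling and transcription clients 20 were listed, 0 were called lower and 2 higher, and by the FDR alone 0 were lower and 3 higher. The median log2 ratio of the 17 listed in both libraries was 0.0084. Bad, a death-promoting protein of the Bcl2 family that 14-3-3 holds in the cytoplasm, rose from 53.4 to 169 TPM (log2 ratio 1.66, 1.41 to 1.91, exact-test FDR 1.32e-46). Of its copies 97.2% were on tags ending in at least 8 A, and with the tag end taken out its log2 ratio was -0.22 (exact-test FDR 0.341). Irs2, an insulin receptor substrate, rose from 12.99 to 31.2 TPM (log2 ratio 1.26, 0.74 to 1.81, exact-test FDR 6.88e-06), and had 1.30 after the correction. Hdac5, a histone deacetylase that 14-3-3 keeps out of the nucleus, had 136 and 175 TPM (log2 ratio 0.36, exact-test FDR 0.000242). Araf, a Raf kinase, had 133 and 114 TPM (log2 ratio -0.23) and did not pass (exact-test FDR 0.160). With the tag-end correction Hdac5 had 0.40 (exact-test FDR 5.13e-05) and Araf 0.035 (exact-test FDR 0.783).

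Of 20 genes chosen as kinases and phosphatases of 14-3-3 docking sites 17 were listed, and whether each acts on such sites was not tested. Of these genes 0 were called lower and 1 higher, and by the FDR alone 1 was lower and 4 were higher. Their median log2 ratio was 0.11. Ppp2ca, the catalytic subunit of protein phosphatase 2A, rose from 107 to 249 TPM (log2 ratio 1.21, 1.03 to 1.39, exact-test FDR 4.54e-43). The rise lay on 1 tag, shown here because it carries the call.
Ppp2ca site 1: CATGactgtagatgaggatag
It had 76 copies in the control library and 571 in the RNAi library, whereas the other tags of Ppp2ca had 288 and 250 (log2 ratio -0.17). Of the phosphatase subunits with more copies, Ppp2r1a had 484 and 602 TPM (log2 ratio 0.31, exact-test FDR 6.16e-11), Ppp1cc 524 and 589 TPM (log2 ratio 0.17, exact-test FDR 0.000629), and Ppp1ca 411 and 329 TPM (log2 ratio -0.32, exact-test FDR 8.42e-06). With the tag-end correction Ppp2ca had 1.12, Ppp1ca -0.24 (exact-test FDR 0.00433), Ppp2r1a 0.10 (exact-test FDR 0.0573) and Ppp1cc -0.077 (exact-test FDR 0.562), so Ppp2r1a and Ppp1cc no longer passed. The kinase Rps6ka2, named after its value was seen, was the other one higher by the FDR alone (39.0 and 56.6 TPM), and it did not pass with the correction (log2 ratio 0.39, exact-test FDR 0.0785).

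**Figure D5:**
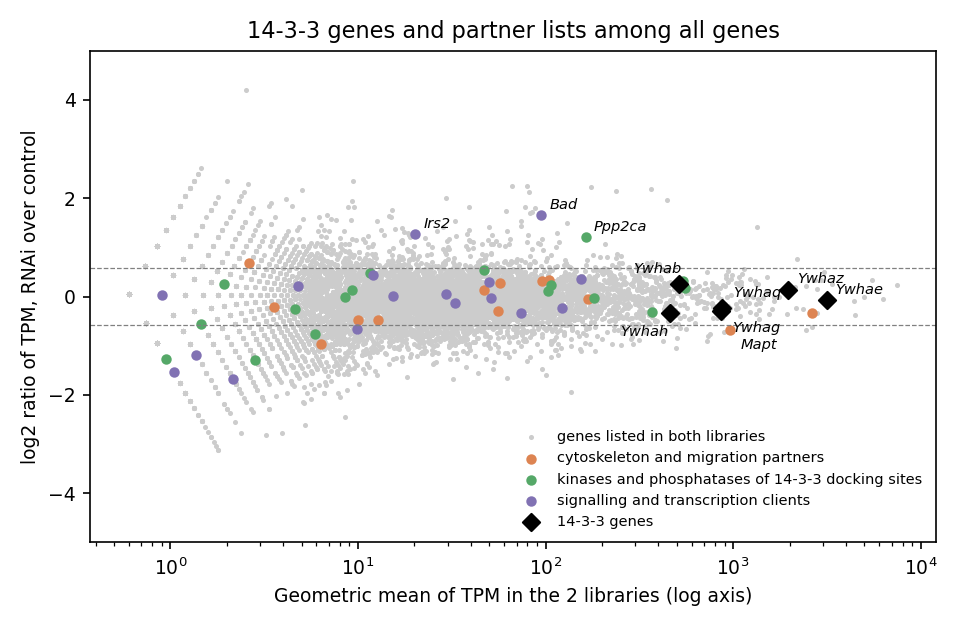
Log2 ratio of RNAi over control against the geometric mean of TPM in the libraries (log axis) for all genes listed in both, with the 14-3-3 genes as black diamonds, the 3 partner lists in colour and dashed lines at 0.58 in either direction. The 6 diamonds lie between the dashed lines at the abundant end, while Mapt (-0.68), Bad (1.66), Irs2 (1.26) and Ppp2ca (1.21) lie outside them.

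One more 14-3-3 entry was listed beside the members. Sfnl1 (NM_001013941), which resembles the epithelial sigma form, had 2 copies in the control library and 3 in the RNAi library, at or under the floor of 3 copies, and Sfn was not analysed here. The genes outside the family with the most similar levels over the 2 libraries, by Euclidean distance in log2 TPM, were found for each member. They were Septin5 for Ywhah (518 and 404 TPM, distance 0.030), Arhgdia for Ywhab (480 and 554 TPM, distance 0.041) and Ldha for Ywhaq (946 and 857 TPM, distance 0.082). For Ywhag it was Rplp2 (984 and 733 TPM, distance 0.10), for Ywhaz Jpt1 (1795 and 1933 TPM, distance 0.11) and for Ywhae Atp5mk (3078 and 3681 TPM, distance 0.27). With 2 libraries this likeness is one of level and of 1 difference only.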

How the data were processed

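For each library the authors deposited a table of genes with tag counts, the copies of each tag and TPM (copies per 1000000 clean tags), and these deposited counts were not normalized. The submitters' processing notes name the genome build rn4. The program that matched tags to transcripts is not given in the sources used here, and the tables hold no tag seen once. No coordinates are printed, since the tables give none. Symbols came from a RefSeq gene table by accession (94.3% of 9894 genes).

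A two-sided Fisher's exact test set each gene's copies against all other tags on genes, with Benjamini-Hochberg adjustment over all 9894 genes, and likewise over the 16021 tags with at least 20 copies. It stood in place of edgeR's quasi-likelihood test, which has no residual degrees of freedom with 1 library per condition. Log2 ratios are of the deposited TPM, and a call needed an FDR of at most 0.05 and a log2 ratio at or beyond 0.58 in either direction. The share of a gene's most copied tag was tested the same way in genes with at least 20 copies on it and 20 on the others.

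The tag-end correction put tags into classes by the final 2 bases, with separate classes for final runs of 3 to 13 A. Each class median (0.5 copies added), less the median of all tags, came from one set of genes and was subtracted in the other set. Alternatives were edgeR's TMM factors (1.02 and 0.976), an exact test in edgeR at assumed coefficients of variation, size factors of DESeq2 (1.04 and 0.959), other totals, filters, pseudocounts and thresholds. The members, partner lists, marker lists and alternatives were chosen with earlier results of these data known. Named genes are the members, the nearest gene to each, and of each partner list the called genes and the 3 most copied. Scripts were tested on simulated data. Python 3.11.15, NumPy 2.4.6, pandas 2.3.3, SciPy 1.17.1, Matplotlib 3.10.9, R 4.3.3, edgeR 4.0.16 and DESeq2 1.42.0 were used.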

Additional observations from a re-analysis of the deposited data

How the results depend on the processing

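Each condition had 1 library, so no replicate could be left out, and the spread between cultures is unknown. No paired analysis was possible because each condition had 1 library and the labels give no replicate numbers. In the exact test of edgeR at a coefficient of variation of 0.1, which was assumed, 170 genes were called lower and 114 higher in place of 591 and 293, and with 0.4 the counts were 0 and 0 (70 lower and 44 higher at an unadjusted p under 0.05). Genes called lower were 358 with the tag-end correction, 262 with a log2 ratio of at least 1 and 257 with an FDR of 0.001, and genes called higher were 146 and 163 with the last pair. The share of the most copied tag was lower in 140 and higher in 195 genes with the tag-end correction, in place of 270 and 357. No 14-3-3 gene was called lower in any of 14 alternatives, and 1 was called higher in 1 of them, Ywhab with the most copied tag only. Several of these alternatives kept the deposited ratios: all clean tags as totals, a filter of 10 copies, the assumed coefficients of variation and the stricter thresholds. Sums per symbol, leaving out tags ending in 8 or more A, and 1 copy added or put back left the members' ratios nearly as deposited. The largest absolute log2 ratio of a member was 0.33, so no member could be called in them.

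With a coefficient of variation of 0.1 or 0.4 the log2 ratios of 0.14 (Ywhaz), -0.29 (Ywhag), -0.23 (Ywhaq), -0.33 (Ywhah) and 0.26 (Ywhab) no longer passed, with adjusted p of edgeR's exact test from 0.597 (Ywhah) to 0.841 (Ywhaz) at 0.1 and of 1 at 0.4. With the tag-end correction, Ywhaq (-0.080), Ywhah (-0.12) and Ywhab (0.11) no longer passed, and Ywhag turned to 0.018, and the cause was not tested. Ywhae turned to 0.020 with TMM factors, 0.011 with DESeq2 size factors and 0.037 with the tag-end correction, and with all clean tags as totals its -0.074 passed (FDR 0.00213 by Fisher's exact test). Over 12 alternatives the log2 ratio ran from 0.10 to 0.25 for Ywhaz, from -0.32 to 0.018 for Ywhag, from -0.51 to -0.080 for Ywhaq, from -0.51 to -0.12 for Ywhah and from 0.11 to 0.64 for Ywhab. The median over all genes moved from -0.085 to 0.0095 with TMM factors, and that of the members from -0.15 to -0.058.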

Other observations

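The 62 site tags of the family were compared with every tag listed under a gene other than the 6 members. The nearest such tag was 2 bases away for 6 of them, 3 for 9, 4 for 33 and 5 for 14. For Ywhah site 7, Ywhaq site 9, Ywhag site 7 and Ywhab site 8, the tag 2 bases away was that of Sfnl1, itself a 14-3-3 entry. Tags of different members were left out of these counts.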
